A study of Ricinus communis with 18 samples.

Results

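Castor (Ricinus communis) roots were searched for genes of chromatin and the cell cycle. A gene was included when its listed product was a histone (H1, H2A, H2B, H3 or H4), had a name containing "cyclin-", or was named as a cell division control protein, a DNA replication licensing factor or the proliferating cell nuclear antigen. Names that mark histone-modifying enzymes or chaperones were left out, which dropped 2 genes. This gave 125 of the 21332 genes in the table, of which 42 were histones, and 108 of the 125 (86.4%) had enough counts to be tested, against 75.4% of all genes. The 17 that were not tested had a mean level of at most 1.16 FPKM (fragments per kilobase of gene, scaled by library total), and 8 of them had no count in any library. Product names are those of the best hit in another species, often Jatropha curcas, so they name a related protein and not a proven castor function. The match by name also took in 17 genes whose products belong to other protein families, such as calcyclin-binding protein, or carry a name from animals or microbes or from a single hit, and these are kept apart below.

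The study treated castor plants with 15% PEG-6000, a polymer that lowers the water potential around the roots. Root systems were sampled after 3 days and after 7 days in PEG, and 4 days after PEG had been removed (rehydrated roots). Untreated controls were kept for 3, 7 and 11 days, which makes 6 groups of 3 libraries and 18 libraries in all. All groups are of the same tissue, and no genotype or plant age is given in the labels used here. Whether libraries of a group come from different plants is not stated, so the tests weigh differences against the spread among libraries, whatever its source. Library totals ran from 6607760 to 10817476 counts.

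Cells commit to division when D-type cyclins activate cyclin-dependent kinases, which inactivate the retinoblastoma-related protein and free E2F factors to switch on genes of DNA synthesis. Replication origins are licensed by loading the MCM helicase with the help of CDC6, and CDC45 and the sliding clamp PCNA act at the fork, while new core histones package the daughter strands. A-type and B-type cyclins with B-type kinases then drive mitosis, and the KRP and SIAMESE-related (SMR) proteins hold the kinases back. Histone variants such as H3.3 and H2A.Z are also made and deposited outside replication. In roots, division takes place mainly in the meristem at the tip, which is a small part of a whole root system. In such bulk samples, fewer dividing cells and less RNA per cell cannot be told apart.

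In the main test, histones made up most of the genes called after 3 days in PEG, which did not hold under each scaling given below. Of the 108 tested genes, 17 rose and 3 fell (adjusted p below 0.05 in edgeR's quasi-likelihood test with TMM scaling, a trimmed mean of ratios between libraries). Over all 16085 tested genes 11.7% were higher and 11.4% lower, 23.1% in all, so the share of these 108 genes that was called (18.5%) was not above the background, while its split leaned to higher calls. Of the 17 that rose, 12 were histones and 11 of the 17 reached 2-fold. Among the 39 tested histones 12 rose and 0 fell, and DESeq2 called 14 higher and 0 lower. The median log2 change of the histones was 0.43, against 0.02 for all 108 genes and -0.082 for all genes tested. Among the genes of the other roles, cyclin-D1-1-like and MCM6 fell, and cyclin-D3-1-like, SMR3-like and the ATPase CDC48B rose. The other 3 calls were of genes matched by name only.

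This split depended on the scaling of the libraries. The TMM factor of the 3-day PEG libraries lay between 0.765 and 0.806, that of the 7-day PEG libraries between 0.809 and 0.95, and that of all others between 0.968 and 1.267. With library totals alone, 7 of the 108 genes were higher and 17 lower in PEG at 3 days, where the background was 5.67% higher and 25.8% lower and the median of all genes moved to -0.523. Among histones the counts were then 5 higher and 4 lower, with a median log2 change of -0.02. All 7 were among the 17 that rose under TMM, and all 3 that fell under TMM were again lower. Gene length also moved with the result. The tested histones had a median length of 762 bases, against 1662 for all tested genes, and the shortest 10% of genes had a median log2 change of 0.58 at 3 days, against -0.51 for the longest 10%. Genes no longer than the median histone had a median of 0.61. After the length trend was removed, 11 of the 108 genes were higher and 5 lower, where 1823 of all 16085 genes were higher and 1354 lower. The 39 tested histones then split into 5 higher and 3 lower. Their median log2 change was -0.03, against 0.005 for all genes. In FPKM, which is scaled by library totals, all PEG libraries of day 3 were above all controls in 10 of the 108 genes and below them in 18, against 8.1% and 33.3% of all tested genes, so FPKM and TMM-scaled differences can disagree for the same gene.

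**Figure D1:**
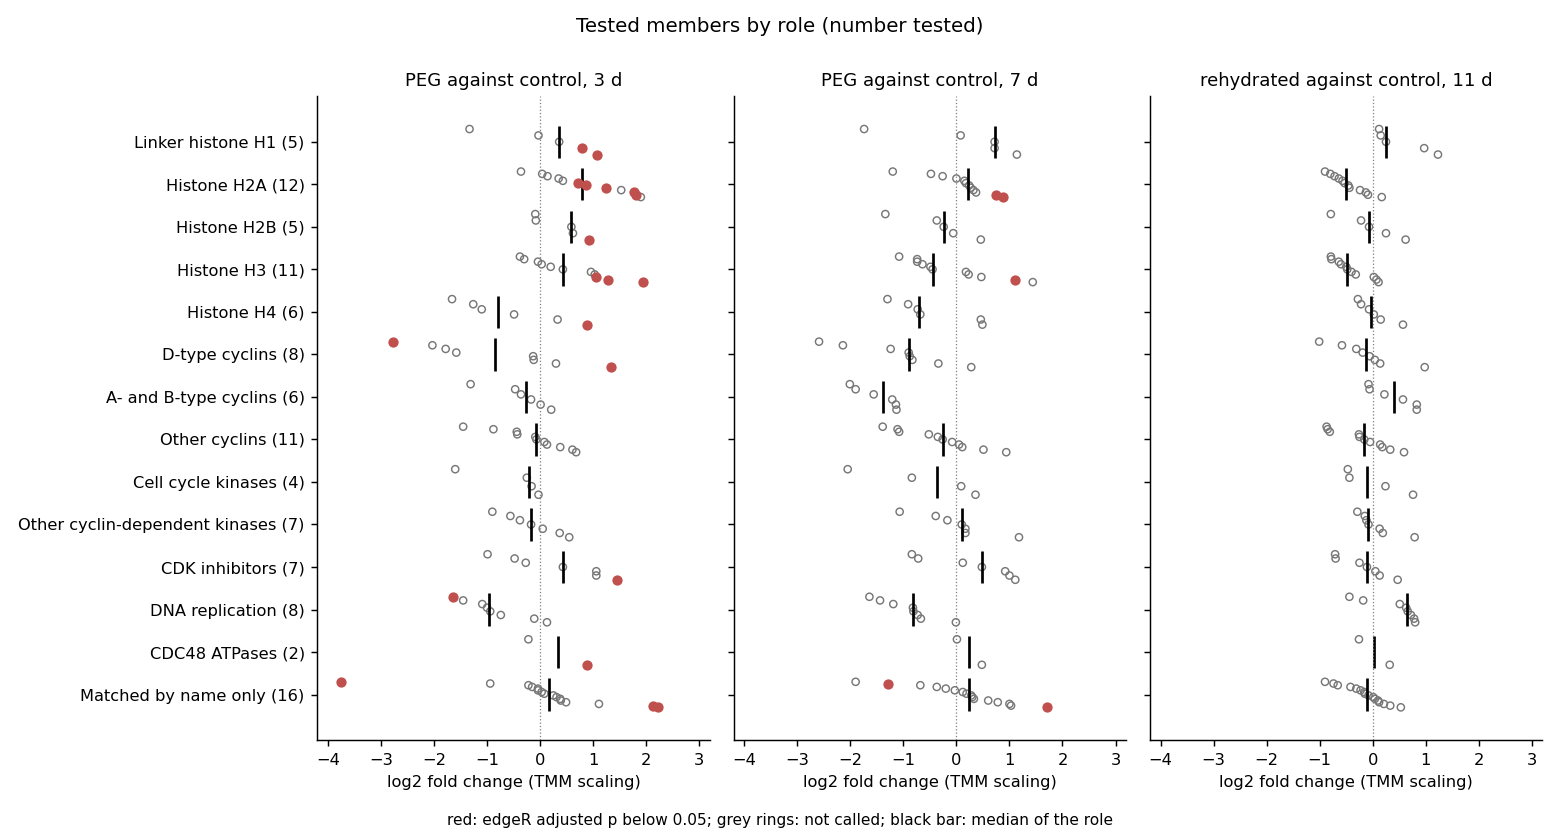
Log2 fold change of each tested gene (x axis, TMM scaling) by role (y axis, with the number tested) in PEG against control at 3 and 7 days and rehydrated against control roots at 11 days. Red points have an edgeR adjusted p below 0.05, rings do not, and black bars are medians; the red points of the 3-day panel lie mostly to the right within the histone rows, and the 11-day panel has none.

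The 4 copies of histone H3.3, the H3 form that is deposited independently of replication, included the highest level of the set, in gene ncbi_8275827. Its FPKM was 183, 429 and 605 in the 3 control libraries of day 3 and 587, 1721 and 1168 in the PEG libraries of that day. The lowest PEG library lay just under the highest control, so the groups overlapped. It rose by 1.95 ± 0.53 (log2 ± SE, adjusted p = 0.0169, edgeR). The call was lost without control library 1, without PEG library 2 and after removal of the length trend (1.49, adjusted p = 0.0544, edgeR), and held with library totals (1.51). The controls of this gene spread widely on day 7 as well, with 289, 162 and 764 FPKM against 968, 727 and 1011 in PEG, where PEG library 2 alone was below the highest control. At 7 days its log2 difference was 1.44 ± 0.52 (adjusted p = 0.119).

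A further H3.3 copy, ncbi_8281684, was called on both days. Its FPKM was 311, 418 and 558 in controls and 539, 911 and 863 in PEG at 3 days. Its values on day 7 were 382, 335 and 565 in controls and 714, 707 and 882 in PEG. All PEG libraries of day 7 were above all controls, while on day 3 PEG library 1 fell under the highest control. The log2 change was 1.28 ± 0.29 at 3 days (adjusted p = 0.00653) and 1.10 ± 0.29 at 7 days (adjusted p = 0.0435, both edgeR). At 11 days the groups overlapped, with 298 to 383 FPKM in controls and 237 to 308 after rehydration. The 3-day call held without any 1 library and with library totals (0.84). Another copy, ncbi_8275826, rose from 67.7, 93.1 and 101 FPKM in controls to 133, 144 and 122 in PEG at 3 days without overlap (log2 1.05 ± 0.26, edgeR adjusted p = 0.0109). That call was lost without control library 1, with library totals (adjusted p = 0.0528) and after removal of the length trend. The last copy, ncbi_8258257, was at 84.7 to 145 FPKM in the 6 libraries of day 3 and was not called (0.43 ± 0.23).

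Copies annotated as H3.2 gave no edgeR calls with all libraries. They are 6 genes named after a maize protein, with deposited counts that include fractions in 4 of them. Reads are therefore shared between copies, and the values of single copies below are uncertain. Their log2 differences at 3 days ran from -0.30 to 1.03 with a median of 0.11. Without control library 1 the median was 0.97 and 1 copy (ncbi_8273746) was called higher (1.67, edgeR adjusted p = 0.0457). The summed FPKM was 250, 44.9 and 113 in the controls of day 3 and 197, 89.5 and 85.4 in PEG. These groups overlapped, and control library 1 held 5.58 times the level of control library 2. The summed FPKM of the 4 H3.3 copies was 692, 1025 and 1401 in controls and 1361, 2922 and 2256 in PEG on day 3. The day 7 sums were 840, 683 and 1575 in controls and 1886, 1646 and 2097 in PEG, without overlap. At 11 days the rehydrated roots, at 639, 486 and 684, were all below the controls, at 710 to 889. H3.3 made up 87.8%, 77.2% and 91.9% of the summed H3.3 and H3.2 FPKM in the day 7 controls and 96.3%, 92.5% and 96% in PEG, where all 3 PEG libraries were above all 3 controls. On day 3 the shares overlapped, with 73.4% to 95.8% in controls and 87.4% to 97% in PEG. The centromeric H3 (HTR12), which marks the site of kinetochores, was not called (-0.38 ± 0.37 at 3 days and -0.74 ± 0.37 at 7 days), but its day 7 libraries did not overlap, with 7 to 8.77 FPKM in controls and 3.47 to 4.59 in PEG.

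H2A genes gave most calls of any role at 3 days, with 5 of 12 higher and 0 lower. Their median log2 change was 0.80 at 3 days, 0.21 at 7 days and -0.49 at 11 days. The H2A variant 3 genes are named after H2A.Z-type variants of plants, which sit next to transcription start sites. The most abundant H2A, H2A variant 3 (ncbi_8271374), was called on both days. Its FPKM was 261, 358 and 319 in controls and 318, 378 and 446 in PEG at 3 days, which overlapped, and 339, 271 and 289 against 442, 387 and 552 at 7 days, which did not. The log2 changes were 0.72 ± 0.24 (adjusted p = 0.0388) and 0.88 ± 0.24 (adjusted p = 0.0491, both edgeR). The 3-day call was lost with library totals (0.28), after removal of the length trend (0.24) and without control library 1 or 3 or PEG library 2 or 3. H2A variant 3-like (ncbi_8276219) rose at 3 days from 43.1, 39.1 and 48.6 FPKM to 70.6, 70.5 and 87.6 without overlap (1.24 ± 0.23, edgeR adjusted p = 0.00192). It stayed called under library totals (0.81), after removal of the length trend (0.96) and without any 1 library. At 7 days its difference was 0.37 ± 0.22 and was not called.

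Of the 6 tested H2A genes that are no variant, 3 rose at 3 days. With library totals 2 were called higher, where 5.67% of all tested genes were. H2A.1-like (ncbi_8287073) was at 91.4, 38.9 and 78.4 FPKM in controls and 287, 114 and 133 in PEG (1.80 ± 0.40, edgeR adjusted p = 0.00536). H2A.3 (ncbi_8267415) was at 25.6, 13.5 and 17.7 FPKM in controls and 77.6, 32.6 and 32.5 in PEG (1.78 ± 0.38, adjusted p = 0.00477). In both genes the groups did not overlap and PEG library 1 was by far the highest, and without that library the log2 changes were 1.27 and 1.23 and still called. Both overlapped with controls at 7 days, with 76 to 81.7 FPKM and 20.5 to 26 FPKM in PEG, and their differences there were 0.24 ± 0.38 and 0.32 ± 0.38 and were not called. H2A.1 (ncbi_8280697) was called on both days. It was at 45, 54.6 and 64.8 FPKM in controls and 76.6, 74.7 and 70.3 in PEG on day 3, and at 40.2, 39.6 and 49.8 against 57.7, 56.7 and 68.4 on day 7. No libraries overlapped on either day, and the log2 changes were 0.87 ± 0.20 (adjusted p = 0.00699) and 0.75 ± 0.20 (adjusted p = 0.047, both edgeR). The 3-day call held without any 1 library and was lost with library totals (0.43, adjusted p = 0.0834, edgeR). None of the 3 H2AX genes, the form phosphorylated at DNA breaks, was called by edgeR with all libraries, with log2 values of -0.36, 0.43 and 1.90 at 3 days. The last of these, an H2AX-like gene (ncbi_8287210), had controls of 18.2, 1.38 and 11.3 FPKM and PEG values of 47.5, 19.4 and 17, and its adjusted p was 0.0546 in edgeR. DESeq2 called it (1.95, adjusted p = 0.0183), as did edgeR without control library 1 (2.54, adjusted p = 0.0475). With library totals another H2AX-like gene (ncbi_8272069) was called lower (-0.81, edgeR adjusted p = 0.0246).

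**Figure D2:**
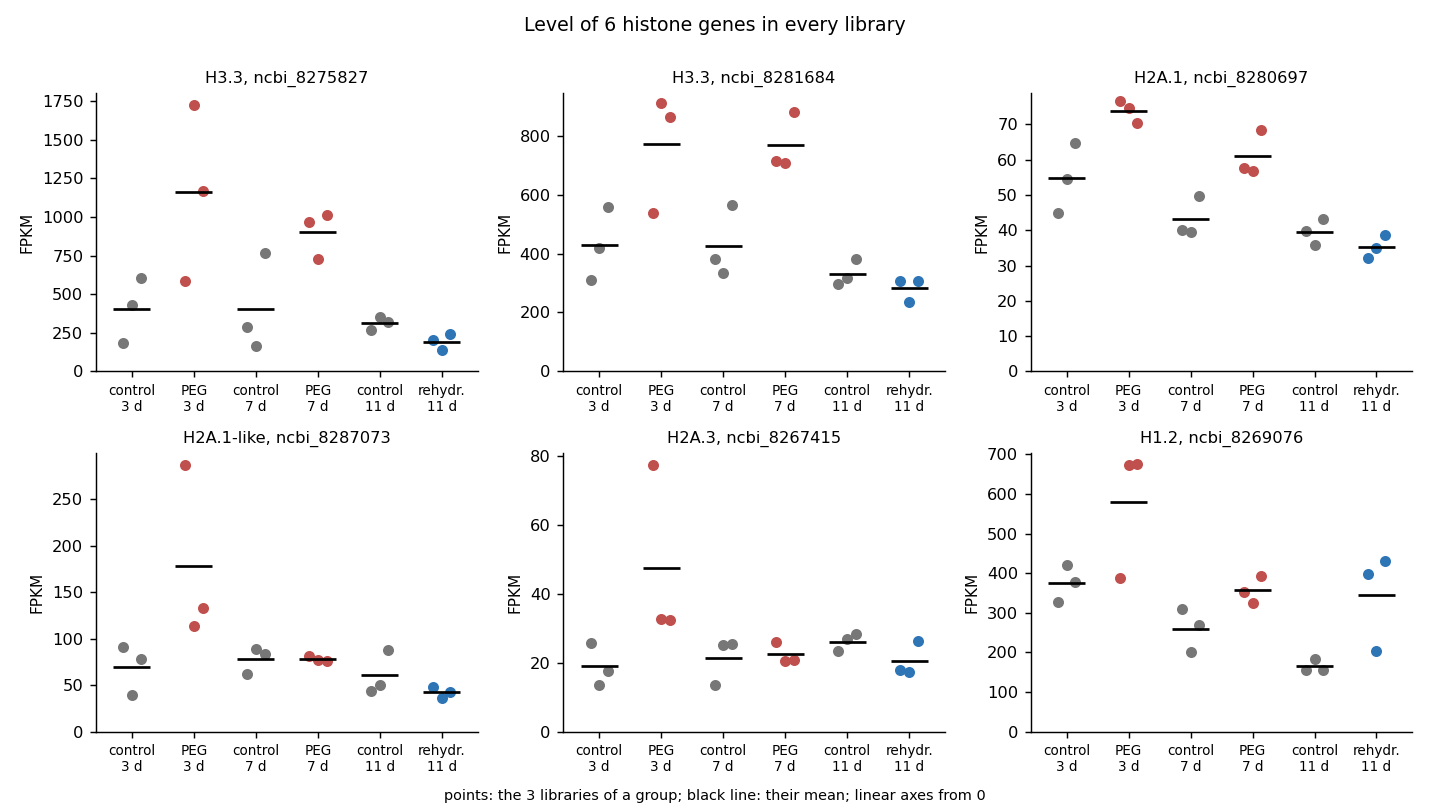
FPKM (y axes, linear from 0) of 2 H3.3, 3 H2A and 1 H1 gene in each library of the 6 groups (x axis), with black lines for group means. In all 6 panels the PEG libraries of day 3 have a higher mean than the controls of that day, and H2A.1-like and H2A.3 overlap with their controls on day 7.

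Linker histones, which bind DNA between nucleosomes, had high levels and wide spreads. H1.2 (ncbi_8269076) was at 327, 421 and 377 FPKM in the day 3 controls and 388, 674 and 676 in PEG, with PEG library 1 inside the control range. It rose by 1.07 ± 0.28 on the log2 scale (edgeR adjusted p = 0.014). The call was lost without control library 1, without PEG library 2, with library totals and after removal of the length trend. Its level in controls was 375 ± 46.8 FPKM on day 3, 260 ± 54.3 on day 7 and 165 ± 16.8 on day 11 (mean ± SD, n = 3 libraries each). The control difference between days 11 and 3 was -1.23 ± 0.28 and was not called by edgeR (adjusted p = 0.241), while DESeq2 called it (adjusted p = 0.0111). Rehydrated roots were at 398, 204 and 431 FPKM against 156, 184 and 155 in their controls, above them in each library, with a log2 difference of 0.97 ± 0.28 (edgeR adjusted p = 0.349). H1.2-like (ncbi_8274745) rose at 3 days by 0.79 ± 0.25 (edgeR adjusted p = 0.0307), a call lost with library totals, after removal of the length trend and without control library 1, PEG library 1 or PEG library 3. Its 7-day difference was 0.72 ± 0.25 (adjusted p = 0.1), where all PEG libraries were above all controls. The H1 gene ncbi_8258337 ranged from 56.2 to 675 FPKM over the 18 libraries with overlap in every comparison and was not called. Of the 5 tested H1 genes, 2 had log2 values under 0 at 3 days, the lowest at -1.33. In FPKM 2 had all PEG libraries below all controls and 0 above, against 33.3% and 8.1% of all tested genes. The lowest H1 value at 7 days was -1.74. With library totals another H1.2-like gene (ncbi_8259385) was called lower at 3 days (-0.47, edgeR adjusted p = 0.0454), as were 25.8% of all genes.

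H2B and H4 genes gave 1 edgeR call each, both at 3 days. H2B (ncbi_8275253) was at 33.2, 22.7 and 27.4 FPKM in controls and 60.2, 21.6 and 35 in PEG (0.93 ± 0.33, edgeR adjusted p = 0.0496), with PEG library 2 below all controls and PEG library 1 far above them. The most abundant H2B, H2B2 (ncbi_8278127), was at 121 to 145 FPKM in controls and 125 to 189 in PEG and was not called by edgeR (0.62 ± 0.23, adjusted p = 0.058), while DESeq2 called it higher (0.66, adjusted p = 0.0224). The H4 gene that was called, H4.3 (ncbi_8264812), was the most abundant H4 and had 101, 65.6 and 112 FPKM in controls against 193, 67.5 and 117 in PEG (0.88 ± 0.30, adjusted p = 0.0463). These calls were lost in 5 and 4 of the 6 fits that left out 1 library, under library totals and after removal of the length trend. The other H4.3 copy above 50 FPKM (ncbi_8278032) had 0.33 ± 0.20, and the 4 copies of lower level had values from -1.66 to -0.49 with none called, so the median over the 6 genes was -0.79, and 0.39 without control library 1. With library totals 2 of those 4 copies were called lower, where 25.8% of all tested genes were.

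D-type cyclins, which link growth signals to entry into the cycle, went in both directions. Cyclin-D1-1-like (ncbi_8281928) had the lowest adjusted p of the set at 3 days. It was at 17.8, 19.1 and 17.9 FPKM in the day 3 controls and 1.53, 1.26 and 3.08 in PEG, a log2 change of -2.78 ± 0.34 (edgeR adjusted p = 0.000164). By day 7 the values were 17.1, 18.6 and 21.7 against 5.87, 13.4 and 8.38, still without overlap but not called (-0.83 ± 0.31, adjusted p = 0.127). After rehydration its 12.4, 13.1 and 16.8 FPKM overlapped with the controls at 14.1 to 19.9. The difference between the PEG effects of days 7 and 3 was 1.94 ± 0.45, which edgeR did not call (adjusted p = 0.0905) and DESeq2 did (1.92, adjusted p = 0.00595). The 3-day call held under library totals (-3.21), after removal of the length trend (-2.52) and without any 1 library.

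Cyclin-D3-1-like (ncbi_8268388) rose at 3 days. It was at 3.15, 3.73 and 2.1 FPKM in controls and 6.24, 5.27 and 5.05 in PEG, without overlap (1.33 ± 0.39, edgeR adjusted p = 0.0245). The call was lost with library totals (0.88) and in 4 of 6 fits that left out 1 library. Cyclin-D3-1 (ncbi_8288141) had the lowest D-type value at 7 days, at 3.71, 5.7 and 6.75 FPKM in controls and 0.12, 1.67 and 0.51 in PEG (-2.59 ± 1.02, adjusted p = 0.148). Of the 13 D-type genes 8 were tested, and 7 of the 8 had a log2 value under 0 at 7 days. At that time 6 of the 8 had all PEG libraries below all controls, where 25% of all tested genes did, and none was called. Their medians were -0.86, -0.89 and -0.12 at 3, 7 and 11 days, and the 3-day median moved to 0.23 when control library 1 was left out and to -1.85 when PEG library 1 was.

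Of the 8 genes of DNA replication, 7 had log2 values under 0 at 3 days and 1 was called, and control libraries differed several-fold. MCM6 (ncbi_8273210), a subunit of the replicative helicase, was the one that fell. It was at 5.2, 1.22 and 2.39 FPKM in the day 3 controls and 0.66, 0.49 and 0.89 in PEG, without overlap (-1.64 ± 0.53, edgeR adjusted p = 0.0346). The call held under library totals (-2.09) and was lost after removal of the length trend (adjusted p = 0.0716) and without control library 1 or any 1 of the 3 PEG libraries. All 5 MCM genes found (MCM2, MCM3, MCM4, MCM6 and MCM7) had log2 values under 0 at 3 days, from -1.64 to -0.11, and at 7 days, from -1.64 to -0.67. At 11 days all 5 were above 0, from 0.51 to 0.80, with none called. With library totals 3 of the 5 were called lower at 3 days. These genes are 2389 to 3136 bases long, against a median of 1662 for all tested genes. The median log2 change of the 8 replication genes at 3 days was -0.97. After removal of the length trend it was -0.59, and -0.57 for the 5 MCM genes, with none called. Without control library 1 the median of the 8 genes was -0.14 with none called, and without PEG library 1 it was -1.59 with 4 called lower.

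The summed FPKM of the 5 MCM genes was 56, 17 and 26.1 in the controls of day 3 and 24.8, 5.45 and 12.6 in PEG. The day 7 sums were 30.2, 48.3 and 22.4 in controls and 11.2, 17.2 and 17.2 in PEG, and those of day 11 were 32.9 to 41.2 in controls and 58.5, 81.3 and 39.8 after rehydration. Only the day 7 sums did not overlap, and the highest PEG value of day 3 lay between the lowest and the middle control. Set against the summed H3.3 level, the MCM sum per 1000 H3.3 was 35.9, 70.7 and 14.2 in the day 7 controls and 5.93, 10.4 and 8.22 in PEG. Its lack of overlap on day 7 adds nothing, because the MCM sums were all lower and the H3.3 sums all higher in PEG. On day 3 this ratio overlapped, with 81, 16.6 and 18.6 in controls and 18.2, 1.87 and 5.59 in PEG. On day 11 it was 58, 42.8 and 37 in controls and 91.7, 167 and 58.1 after rehydration, where the lowest rehydrated library was just above the highest control. CDC6 (ncbi_8283237), the loading factor, was at 2.9, 0.5 and 0.59 FPKM in controls and 1.22, 0 and 0.15 in PEG at 3 days and was not called (-1.09 ± 0.95). CDC45, the helicase activator, had -0.94 ± 0.72. PCNA (ncbi_8279783), the most abundant gene of the role, was not called, with 0.13 ± 0.36 at 3 days, -0.01 ± 0.35 at 7 days and -0.44 ± 0.35 at 11 days.

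The role of A-type and B-type cyclins, which act from S phase to mitosis, held 6 genes, while genes with a B-type cyclin name that were matched by name only are kept apart below. None of these 6 was called by edgeR in any comparison with all libraries in the model. None had an unadjusted p below 0.05 in the same-day comparisons or was called there by DESeq2. All 6 had log2 values under 0 at 7 days, from -2.01 to -1.13 with a median of -1.39, against -0.059 for all genes. The most abundant, cyclin-B2-4-like (ncbi_8273611), was at 12.5, 0.95 and 4.26 FPKM in the day 3 controls and 10.1, 0.07 and 2.84 in PEG. Its day 7 values were 5.43, 10.3 and 2.91 against 0.24, 3.16 and 1, and those of day 11 were 6.56 to 10.2 in controls and 11.4 to 12.8 after rehydration. The values of days 3 and 7 overlapped, and on day 11 all rehydrated libraries were above all controls (0.57 ± 0.97, edgeR adjusted p = 0.891). The summed FPKM of the 6 cyclins was 33.7, 4.63 and 11.1 in controls and 22.4, 1.66 and 6.44 in PEG at 3 days, a range of 7.29 times among controls and 13.5 times among PEG libraries. At 7 days the sums were 17.8, 31.3 and 9.46 against 2.59, 10.8 and 4.16.

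**Figure D3:**
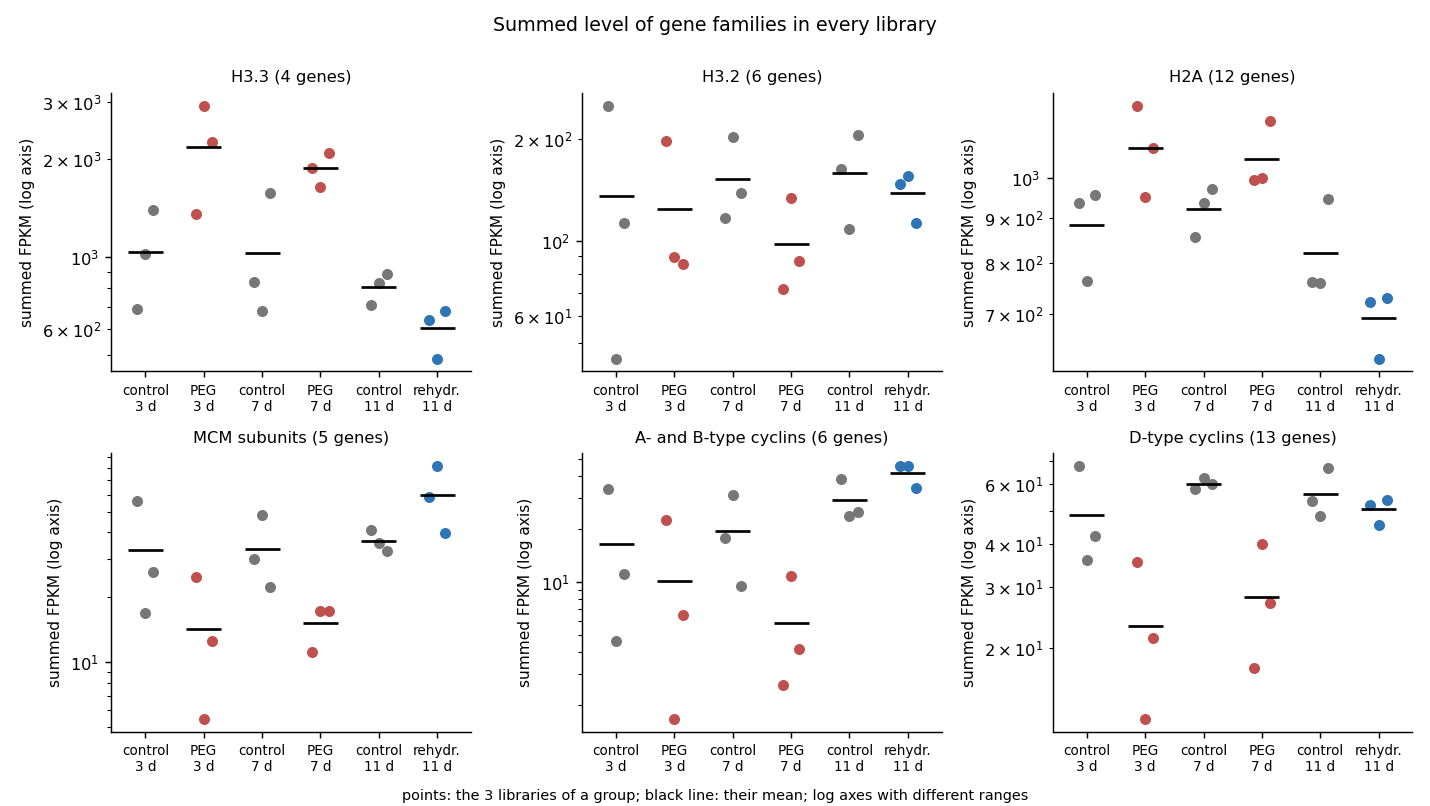
Summed FPKM (y axes, log scale with a range of its own per panel) of H3.3, H3.2, H2A, MCM, A- and B-type cyclin and D-type cyclin genes in each library of the 6 groups (x axis), with black lines for group means. PEG and control libraries of day 7 do not overlap for H3.3 and H2A, where PEG is higher, and for MCM and D-type cyclins, where it is lower, whereas the cyclins of mitosis spread over several-fold within the groups of day 3.

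In 4 of the 6 groups the library with the highest MCM sum also had the highest sum of A-type and B-type cyclins, and in 5 of 6 the lowest was shared. The library highest in those cyclins was highest in root meristem markers in 5 of 6 groups, and the lowest was shared in all 6. The meristem list held 3 genes of the PLETHORA family, of which 1 had no counts, and its summed FPKM was 4.05, 0.24 and 3.24 in the day 3 controls, 1.57, 0 and 0.87 in PEG, 3.27, 4.01 and 1.37 in the day 7 controls and 0, 2.28 and 0.75 in PEG. At 11 days it was 3.93 to 8.85 in controls and 5.19 to 8.68 after rehydration. Neither of the 2 tested genes was called in any comparison, and the part of meristem content in the replication and cyclin values was not tested. For H3.3 the highest library was shared with the A-type and B-type cyclins in 0 of 6 groups. Without PEG library 1 of day 3, 14 of the genes of the set were higher and 12 lower, where 1970 of all 16318 genes tested were higher and 1989 lower. Those of the set newly called lower included cyclin-2-like (-4.37), cyclin-D3-1 (-4.10), CDKB2-2 (-3.71), CDC6 (-3.55), MCM3 (-2.34), MCM4 (-1.65) and MCM2 (-1.33). Without control library 1, 9 of the set were higher and 2 lower, where 885 of all 16340 genes tested were higher and 1015 lower.

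In the role of cell cycle kinases 4 genes were tested, among them a kinase regulatory subunit (ncbi_8275256). None was called by edgeR with TMM and all libraries. With library totals that subunit was called lower at 3 days (-0.70, edgeR adjusted p = 0.0498), as were 25.8% of all tested genes. The CDKA-type kinase (ncbi_8267743, listed as cell division control protein 2 homolog A), the main partner of D-type and A-type cyclins in plants, was at 71.5 to 98.5 FPKM in controls and 40.1 to 77.4 in PEG at 3 days, which overlapped (-0.03 ± 0.23). CDKB2-2 (ncbi_8273672), made in plants mainly from G2 to mitosis, was at 25.6, 1.14 and 6.16 FPKM in controls and 6.71, 0.31 and 0.86 in PEG on day 3. Its day 7 values were 13.1, 19.8 and 4.14 against 0.29, 5.46 and 2.22, and those of day 11 were 14.8 to 28.4 against 22.2 to 43.3. Groups overlapped on all 3 days and the log2 values were -1.60 ± 1.05, -2.05 ± 1.06 and 0.76 ± 0.99.

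Among the inhibitors, 1 of 7 tested was called. SMR3-like (ncbi_8273497), of the SIAMESE-related family that is known in Arabidopsis for stress-induced arrest, was at 2.39, 1 and 2.39 FPKM in controls and 1.86, 5.23 and 4.56 in PEG at 3 days (1.45 ± 0.50, edgeR adjusted p = 0.0459). PEG library 1 lay below 2 of the 3 controls. The call was lost in 5 of 6 fits that left out 1 library, with library totals and, narrowly, after removal of the length trend (adjusted p = 0.0523). The most abundant inhibitor, CDK inhibitor 5 (ncbi_8280678) of the KRP family, was at 30.8 to 50.6 FPKM in controls and 36.6 to 45.6 in PEG at 3 days (0.43 ± 0.23, not called). With library totals CDK inhibitor 7 (ncbi_8262874) was called lower at 3 days (-0.72, edgeR adjusted p = 0.0406).

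**Figure D4:**
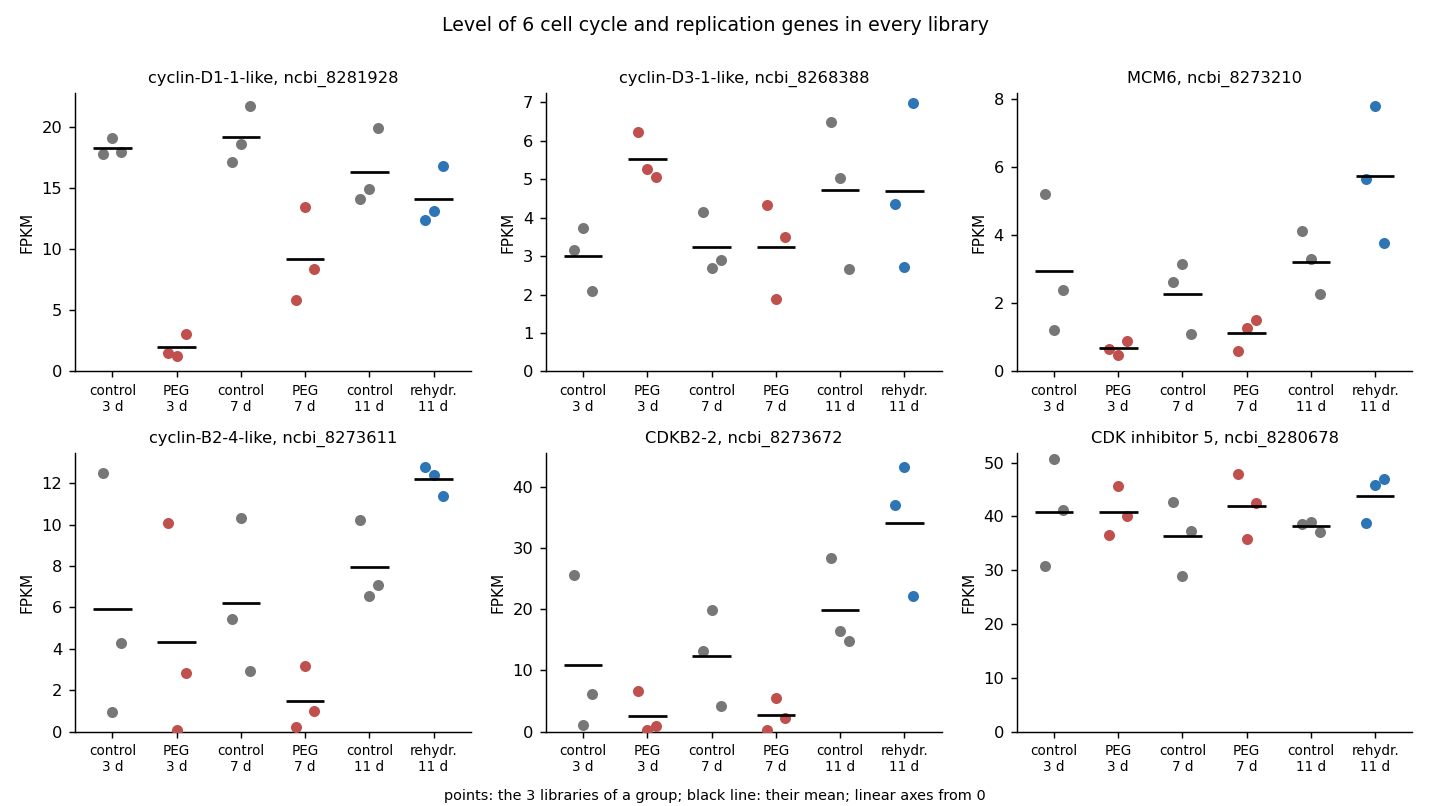
FPKM (y axes, linear from 0) of cyclin-D1-1-like, cyclin-D3-1-like, MCM6, cyclin-B2-4-like, CDKB2-2 and CDK inhibitor 5 in each library of the 6 groups (x axis), with black lines for group means. Cyclin-D1-1-like is the one with tight controls and PEG libraries far below them on day 3, while control libraries of MCM6, cyclin-B2-4-like and CDKB2-2 spread several-fold.

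Cyclins and kinases that act mainly in transcription or in other processes gave no edgeR calls. None of 11 tested genes of the other cyclins (types C, H, L, P, T, U and SDS) and none of 7 of the other kinases (types C, D, E, F and G) was called in any same-day comparison. DESeq2 called cyclin-T1-4-like at 3 days (0.71, adjusted p = 0.034) and kinase CDKG-2 (1.19, adjusted p = 0.0421) and cyclin-H1-1 (-1.07, adjusted p = 0.0323) at 7 days. With library totals cyclin-U2-2-like and 3 kinases (a CDKC-2-like gene, CDKD-3 and CDKE-1) were called lower at 3 days, where 25.8% of all tested genes were. Without PEG library 1 edgeR called both CDKC-2-like kinases lower (-1.65 and -0.96). The most abundant were cyclin-P3-1 (ncbi_8272041), at 31.1 to 44.4 FPKM in controls and 28.4 to 32 in PEG at 3 days (0.13 ± 0.23), and kinase CDKF-4 (ncbi_8280073), at 121 to 178 against 114 to 151 (0.37 ± 0.22). Of the genes named as CDC48 homologs, CDC48B (ncbi_8260278) rose at 3 days from 8.86, 8.14 and 10.3 FPKM to 10.4, 13.7 and 13 (0.88 ± 0.23, edgeR adjusted p = 0.012), with no overlap by a narrow margin. The call was lost without control library 1 and with library totals. CDC48C-like (ncbi_8266921), the more abundant one, was not called with TMM (-0.22 ± 0.20) and was lower with library totals (-0.66, edgeR adjusted p = 0.0282).

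The 17 genes matched by name only held 3 of the largest changes. A gene listed as cyclin-B2-like from soybean (ncbi_8266071) had no pathway or ontology entry in the table beyond that name. It was at 9.43, 11.9 and 21.4 FPKM in controls and 26.6, 63.9 and 47.4 in PEG on day 3, and at 17.8, 10.3 and 19.3 against 55.1, 33.5 and 38.5 on day 7. No libraries overlapped, and it rose by 2.12 ± 0.39 (adjusted p = 0.00192) and 1.71 ± 0.38 (adjusted p = 0.0257, both edgeR). A gene listed as the slime mould kinase DDB_G0292550 (ncbi_8275751) was at 5.64, 13.4 and 11.7 FPKM in controls and 18.5, 60.5 and 26.2 in PEG on day 3 (2.22 ± 0.45, adjusted p = 0.00333). A gene listed as CDK inhibitor 1C (ncbi_8288951) fell at 3 days from 4.63, 4.59 and 4.94 FPKM to 0.32, 0 and 0.39 (-3.76 ± 0.88, adjusted p = 0.00773). All 3 of these 3-day calls held with library totals and without any 1 library. The most abundant, listed as cyclin-B from cotton (ncbi_8275475), spread from 125 to 442 FPKM in the day 3 controls and was not called by edgeR (1.11 ± 0.42, adjusted p = 0.0645). DESeq2 called it (1.14, adjusted p = 0.029), as did edgeR without PEG library 1 (1.30, adjusted p = 0.0477). CDC1-like (ncbi_8276344) was the 1 gene that fell at 7 days, from 3.79, 4.38 and 4.17 FPKM to 0.79, 1.98 and 1.57 (-1.29 ± 0.35, adjusted p = 0.0474).

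**Figure D5:**
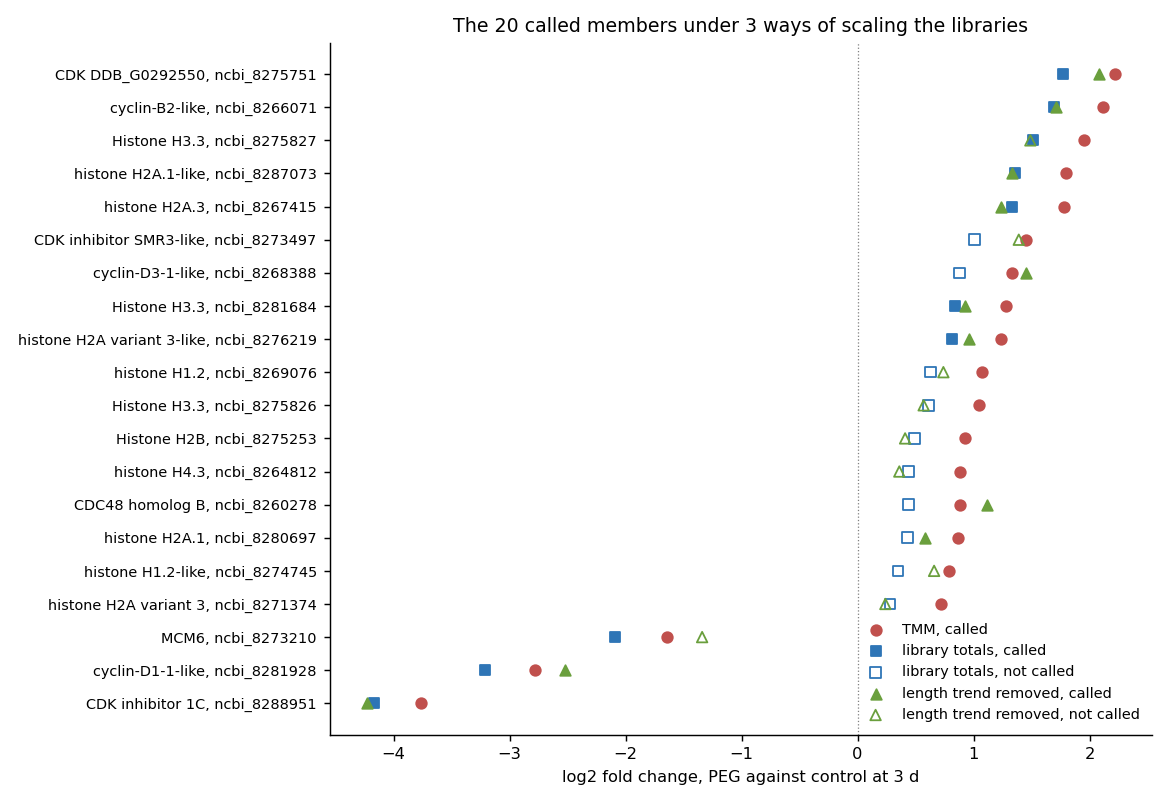
Log2 fold change of the 20 genes called at 3 days (y axis) in PEG against control roots (x axis) with TMM (red circles), library totals (blue squares) and after removal of the gene length trend (green triangles). Filled symbols are called and open ones not: no sign changed, and the 10 genes that lost their call under library totals all rose under TMM.

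At 7 days, 4 of the 108 genes rose and 1 fell, which is 4.63% against a background of 4.05% of all genes (2.59% higher and 1.46% lower). The 4 that rose were H3.3 ncbi_8281684, H2A.1, H2A variant 3 and the cyclin-B2-like gene, all of them called at 3 days as well, and the controls of the 2 days are separate libraries. DESeq2 called 7 higher and 3 lower, and library totals 1 and 2. In FPKM 8 genes had all PEG libraries above all controls and 27 below, against 8.44% and 25% of all tested genes. None of the 5 calls held in every fit that left out 1 library. All 5 were lost without control library 1, control library 2, PEG library 1 or PEG library 3, 3 were lost without control library 3, and 0 without PEG library 2. Shoot markers moved strongly with this comparison. Of 52 genes of photosystems, antenna proteins and the Rubisco small chain, 38 were tested, 26 were called higher and 0 lower at 7 days, and 7 had no counts, all of them plastid-encoded photosystem II subunits. Their summed FPKM was 350 to 732 in controls and 2445 to 3074 in PEG on day 7, and 417 to 987 against 807 to 1879 on day 3, where 9 were called. The part of these transcripts in the histone values was not tested.

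No gene of the set was called between rehydrated and control roots at 11 days by edgeR, against a background of 0.0124% (0.00622% higher and 0.00622% lower). An unadjusted p below 0.05 was found for 9 genes (8.33%, against 9.72% of all genes), and DESeq2 also called 0. The lowest adjusted p was 0.349, for H1.2. By role, the medians were 0.65 for DNA replication genes, 0.39 for A-type and B-type cyclins, -0.49 for H2A and -0.48 for H3, and all 4 H3.3 copies were below 0, from -0.79 to -0.32. Libraries did not overlap for 7 genes that were higher and 8 that were lower, against backgrounds of 7.93% and 8.76% of all tested genes.

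The change of the effect between days was tested directly. Between the PEG effects of days 7 and 3, 0 of the 108 genes were called by edgeR (background 0.236%, with 0.137% higher and 0.0995% lower), 8 had an unadjusted p below 0.05 (7.41%, against 11% of all genes) and DESeq2 called 1, cyclin-D1-1-like, where it called 138 higher and 111 lower of all genes. Between the rehydration difference at 11 days and the PEG effect at 7 days, 0 were called (background 0.671%, with 0.087% higher and 0.584% lower), while 26 genes (24.1%, against 20.5% of all genes) had an unadjusted p below 0.05. DESeq2 called 6 here, where it called 306 higher and 636 lower of all 16085 genes. These were the cyclin-B2-like gene (-2.14), H3.3 ncbi_8275827 (-2.24), H3.3 ncbi_8281684 (-1.43), H2A variant 3, H2A.1 (-0.99) and CDC1-like (1.82), with DESeq2 adjusted p from 0.00821 to 0.0429. A fit of the libraries compared alone called 5, which were the cyclin-B2-like gene, H3.3 ncbi_8281684, CDC1-like, cyclin-A1-1 (2.39) and a CDKC-2-like kinase (1.86). Both contrasts use the day 7 libraries, so they are not independent of the 7-day comparison.

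Few differences were called among controls. Between controls of days 7 and 3, 0 genes were called (background 0%) and 0 had an unadjusted p below 0.05 (against 1.11% of all genes), and DESeq2 called 0. Between controls of days 11 and 3, 0 were called (background 0.0311%, with 0.00622% higher and 0.0249% lower), 4 had an unadjusted p below 0.05 (3.7%, against 6.73% of all genes), and DESeq2 called H1.2 alone.

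Other genes of the pathway were taken from lists by product name. Of 56 tested genes of mitosis and cytokinesis, 8 fell and 2 rose at 3 days, against the background of 11.4% lower and 11.7% higher, so the share called (17.9%) was not above the 23.1% of all genes. The median was -0.79. Without control library 1 the counts were 2 lower and 0 higher (median -0.14), where 1015 of all 16340 genes were lower and 885 higher. Without PEG library 1 they were 18 and 0 (median -1.58), where 1989 of all 16318 genes were lower and 1970 higher. With library totals they were also 18 and 0, where 25.8% of all genes were lower and 5.67% higher. After removal of the length trend they were 4 and 1 (median -0.64), where 1354 of all 16085 genes were lower and 1823 higher. The strongest was the kinesin NACK1 (ncbi_8286659), needed for the cell plate in tobacco, at 3.79 ± 1.26 FPKM in controls and 0.277 ± 0.145 in PEG (-3.30 ± 0.43, edgeR adjusted p = 0.000228). The checkpoint kinase BUB1 (ncbi_8269155) fell by 1.96 on the log2 scale (adjusted p = 0.0336), and condensin subunit 3 (ncbi_8272565) and the APC11 subunit of the anaphase-promoting complex (ncbi_8274967) rose by 1.18 and 0.88 (adjusted p = 0.0388 and 0.0445, edgeR). At 7 days the median was -0.74, with 53 of 56 under 0 and none called by edgeR (DESeq2 called 1 higher and 1 lower, and library totals 1 lower), and at 11 days it was 0.47. Of 27 tested polymerase, primase and replication factor genes, replication factor C subunit 2 (ncbi_8265440), of the complex that loads PCNA, rose at 3 days (1.30 ± 0.34, adjusted p = 0.0127) and at 7 days (1.44 ± 0.34, adjusted p = 0.0296, edgeR), and subunit 2 of DNA polymerase epsilon (ncbi_8260279) fell at 3 days (-0.69 ± 0.22, adjusted p = 0.0358). The median of this list was -0.25 at 3 days. Without control library 1 it was 0.07 and both 3-day calls were lost. With library totals 1 gene of the list was higher and 6 lower, against 5.67% and 25.8% of all genes.

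Of 12 genes that supply nucleotides for DNA synthesis, 1 rose. It was a beta subunit of ribonucleotide reductase (ncbi_8287019), at 3.11 ± 0.274 FPKM in controls and 6.29 ± 0.0529 in PEG at 3 days (1.46 ± 0.29, edgeR adjusted p = 0.00346) and 2.27 ± 0.686 against 4.5 ± 0.545 at 7 days (1.24 ± 0.30, adjusted p = 0.0328). None of 7 tested E2F and retinoblastoma-related genes and none of 8 histone chaperones was called by edgeR with TMM in a same-day comparison. With library totals 1 of the 7 and 3 of the 8 were lower at 3 days, against 25.8% of all genes. Both DESeq2 and the fit with the length trend removed called 1 chaperone lower at 3 days. FIZZY-RELATED 2 (ncbi_8272495), an activator of the anaphase-promoting complex that promotes endoreduplication, fell at 3 days by 1.30 ± 0.33 on the log2 scale (adjusted p = 0.0107). Of 160 tested cytosolic ribosomal protein genes, which are short like the histones, 27 rose and 1 fell at 3 days, with a median of 0.62. The background was 11.7% higher and 11.4% lower, and 1 of these genes rose at 7 days. At 3 days these counts became 8 higher and 5 lower with library totals (median 0.17), against 5.67% and 25.8% of all genes. They were 9 and 3 after removal of the length trend (median 0.26), where 1823 of all 16085 genes were higher and 1354 lower. Without control library 1 they were 10 and 0, where 885 of all 16340 genes were higher and 1015 lower. Root markers were picked by the product names Casparian strip membrane protein, high-affinity nitrate transporter 2, SHORT-ROOT, SCARECROW and root meristem growth factor. Of 9 tested root markers 4 fell at 3 days, against 11.4% of all tested genes. Among them was SHORT-ROOT (ncbi_8283369), at a mean of 37.4 FPKM in controls and 10.8 in PEG (-1.35, adjusted p = 0.00206, edgeR). This gene was detected in all groups, at group means from 10.8 to 39 FPKM. The summed FPKM of the root markers was 595, 457 and 694 in controls and 94.4, 21.1 and 34.5 in PEG at 3 days, and 652, 921 and 834 against 287, 389 and 184 at 7 days. The groups did not overlap on either day, while neither edgeR nor DESeq2 called a root marker at 7 days. Abundant genes weigh most in such a sum, and the log2 changes of single root markers at 3 days ran from -6.24 to 0.68 with a median of -1.56. The part of these markers in the histone and cell cycle values was not tested.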

How the data were processed

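The authors deposited 1 table with 2 columns per library, which the file headers name as counts and FPKM. The deposited counts hold some fractions (at least 98.3% of values per library are whole), so they were taken as estimated counts and rounded for all tests. FPKM, as deposited by the authors, gives the levels of 15 libraries. The labels of the day 11 controls disagree on the FPKM columns, so those 3 columns were not used and FPKM of these libraries was computed from their counts, with the length that counts and FPKM of the other libraries give for each gene. In the 15 libraries this gave 95.8% of deposited FPKM values of at least 1 within 2%. Which aligner, counting tool or assembly was used is not given in the sources used here. Copies of a gene can share reads, and 6 of the 125 genes had fractional counts, so single copies of H2A, H3.2 and other multicopy genes are uncertain.

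A single edgeR 4.0.16 model in R 4.3.3 with a mean for each group covered all 18 libraries (filterByExpr with minimum count 10 and total 15, TMM, quasi-likelihood test, robust dispersion). The Benjamini-Hochberg adjustment ran over the 16085 genes tested in each of 7 comparisons, with 0.05 as the limit for a call. SE is the absolute log2 change over the square root of F. The alternatives tried were the DESeq2 1.42.0 test, edgeR with the size factors of DESeq2, library totals, no filter, only the libraries compared, a replicate block, removal of a length trend (lowess, span 0.3, prior count 2) and each library left out. The script was tested on simulated data.

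The genes and all lists were chosen with earlier results of these data known, and roles were adjusted after the annotations were read. The rule for named genes took, per role, the gene of highest mean FPKM and, per same-day comparison, up to 2 called genes per direction with the largest change, no overlap and a mean of 5 FPKM or more in either group. From the further lists it took up to 2 per direction and comparison. Other genes of a role were named after their values were seen. Library pairs within a group differed beyond counting noise.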

Additional observations from a re-analysis of the deposited data

How the results depend on the processing

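At 3 days, the 17 higher and 3 lower genes became 7 and 17 with library totals and 11 and 5 after removal of the length trend, where 9 of the 17 kept their call. With the libraries compared alone 4 were higher. Leaving out 1 library gave 9 to 16 higher and 2 to 12 lower genes, the 9 without control library 1 and the 12 without PEG library 1, and 7 of the 17 and 2 of the 3 held each time. At 7 days, the 4 higher and 1 lower became 7 and 3 with DESeq2, 1 and 2 with library totals, 1 and 0 without the filter, 2 and 0 after removal of the length trend, 0 and 0 with the libraries compared alone, and 0 to 4 and 0 to 2 when 1 library was left out. The 0 genes called between the PEG effects of days 7 and 3 became 1 with DESeq2 and 0 to 1 when 1 library was left out (1 without PEG library 3 of day 3). The 0 called between rehydration and the 7-day effect became 6 with DESeq2, 5 with the libraries compared alone and 0 to 3 when 1 library was left out (3 without control library 3 of day 7). DESeq2 called 1 gene between controls of days 11 and 3, and the 0 at 11 days and between controls of days 7 and 3 were 0 throughout. No called gene changed sign under any alternative. Of the 25 calls of single genes, DESeq2 and its size factors kept 25, the replicate block 22, no filter 17, removal of the length trend 13, library totals 12 and the libraries compared alone 6, and 16 were lost without at least 1 library. Where a call was lost, the cause was not tested.

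Replicate numbers are shared between groups, but nothing in the labels ties them to a common plant, tray or day. Correlations of deviations between treated and control libraries of the same number were 0.62, 0.5 and 0.08 at 3 days, 0.05, 0.5 and -0.23 at 7 days and 0.16, -0.15 and -0.16 at 11 days, so the numbers were not used as pairs. With the replicate block 17 genes were higher and 2 lower at 3 days, and 3 and 0 at 7 days, and the calls lost were MCM6 at 3 days (edgeR adjusted p = 0.0533) and CDC1-like and H2A variant 3 at 7 days (0.06 and 0.0611). The 3 libraries per group and the spread of several-fold among controls in genes of division limit what could be called there, and a missed threshold does not show that a gene was unchanged.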
